A study of Mus musculus with 9 samples.

Results

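The genes encoding the neuronal nicotinic acetylcholine receptor subunits were examined in bulk RNA-seq of mouse retina at postnatal day 21 (P21). The family was taken by gene symbol from the deposited table and had 9 members of 55487 genes: Chrna2, Chrna3, Chrna4, Chrna5, Chrna6, Chrna7, Chrnb2, Chrnb3 and Chrnb4. These genes were selected on measured values, because Chrnb4 had stood out in Tet tcKO against control retinas in these same libraries. Their differences between Tet tcKO and the controls are therefore given as a description, without p-values. All 9 members passed the filter on low values (0.5 or more reads per 1000000 counted, CPM, in 3 or more libraries).

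Each of the 3 genotypes had 3 libraries. Cre− animals, labelled WT, lacked the Cre transgene. Triple heterozygous (tHet) retinas held 1 floxed allele (loxp/+) of each of Tet1, Tet2 and Tet3 and carried the Chx10-Cre-GFP transgene. Tet tcKO retinas were loxp/loxp at each of these genes, with the same transgene. All were on the C57 BL/6J strain, and each library pooled the retinas of a pair of animals, so p-values measure the spread between such pools. The Chx10 promoter drives Cre in retinal progenitor cells and is known to act in a mosaic manner. The transgene was homozygous in the Cre+ breeding line, while Cre− animals had Cre− parents, so genotype and breeding line cannot be told apart in comparisons with Cre−. TET enzymes oxidise 5-methylcytosine, mostly at CG dinucleotides, and so take part in DNA demethylation.

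Neuronal nicotinic receptors are cation channels that open when acetylcholine binds. Each channel is a ring of subunits, in which the α subunits (Chrna genes) carry the main face of the binding site and the β subunits (Chrnb genes) the complementary face. The α5 and β3 subunits are accessory members that join rings built by other subunits, and α7 can form a ring on its own. In the retina acetylcholine is made by starburst amacrine cells. Early in postnatal life it drives waves of activity through receptors that hold β2, and ganglion cells are known for α6 and β3. Receptors of α3 and β4 are best known from autonomic ganglia and the medial habenula.

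Chrna5, Chrna3 and Chrnb4 lie side by side on chromosome 9. In GRCm38 coordinates with the GENCODE M21 annotation, Chrna5 covers chr9:54980880-55007779 on the plus strand, Chrna3 covers chr9:55010111-55026562 on the minus strand and Chrnb4 covers chr9:55028154-55048779 on the minus strand. Chrna5 and Chrna3 meet tail to tail with 2.33 kb between them, and 1.59 kb separates Chrna3 from Chrnb4. The whole cluster spans 67.9 kb. The other 6 subunit genes lie on chromosomes 14 (Chrna2), 2 (Chrna4), 7 (Chrna7), 3 (Chrnb2) and 8 (Chrnb3 and Chrna6, 3.48 kb apart).

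The start-site windows of the cluster genes are shown because these genes differed together between genotypes and because TET enzymes act on CG dinucleotides. Each runs from 250 bases before to 50 bases after a RefSeq start (GRCm38.p6), is written 5′ to 3′ on the strand of the gene, and has every CG in capitals. Chrna5 has 2 such windows, Chrna5 start 1 at chr9:54980630-54980929 and Chrna5 start 2 at chr9:54981238-54981537, both on the plus strand. The Chrna3 window is at chr9:55026513-55026812 and the Chrnb4 window at chr9:55048495-55048794, both on the minus strand.
Chrna5 start 1: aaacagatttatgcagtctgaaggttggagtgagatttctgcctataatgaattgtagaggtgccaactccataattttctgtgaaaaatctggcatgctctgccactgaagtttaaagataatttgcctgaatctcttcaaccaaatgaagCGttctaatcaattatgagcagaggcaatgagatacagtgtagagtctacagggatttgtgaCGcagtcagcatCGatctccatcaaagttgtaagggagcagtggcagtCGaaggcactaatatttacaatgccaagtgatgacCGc
Chrna5 start 2: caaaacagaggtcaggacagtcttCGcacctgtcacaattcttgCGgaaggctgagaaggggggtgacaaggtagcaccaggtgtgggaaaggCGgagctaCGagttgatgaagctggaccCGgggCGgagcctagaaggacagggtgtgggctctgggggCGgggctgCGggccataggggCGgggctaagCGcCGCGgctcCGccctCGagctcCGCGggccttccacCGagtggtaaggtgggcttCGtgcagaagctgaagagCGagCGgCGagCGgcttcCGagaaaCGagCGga
Chrna3: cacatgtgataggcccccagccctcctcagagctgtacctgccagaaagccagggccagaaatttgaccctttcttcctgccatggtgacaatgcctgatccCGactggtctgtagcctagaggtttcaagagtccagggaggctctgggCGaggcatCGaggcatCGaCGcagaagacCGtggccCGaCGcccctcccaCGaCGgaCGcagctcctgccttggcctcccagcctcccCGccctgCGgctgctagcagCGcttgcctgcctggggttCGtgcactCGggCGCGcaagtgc
Chrnb4: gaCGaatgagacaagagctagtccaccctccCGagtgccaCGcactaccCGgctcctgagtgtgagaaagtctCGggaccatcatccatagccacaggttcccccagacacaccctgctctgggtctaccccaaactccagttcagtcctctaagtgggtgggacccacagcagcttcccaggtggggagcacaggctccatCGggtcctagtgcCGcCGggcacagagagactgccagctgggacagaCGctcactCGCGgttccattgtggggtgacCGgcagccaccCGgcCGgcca

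The cluster windows ranged widely in CG content. Chrna5 start 1 held 5 CG dinucleotides, a number that 62.0% of all 32841 windows reach or exceed, whereas Chrna5 start 2 held 25 (18.4% of windows reach that number). The Chrna3 window held 18 (29.7%) and the Chrnb4 window 14 (36.3%). Of the other subunits, 3 had a window in the table: Chrna7 held 35 CG (6.95%), Chrna4 held 33 (8.56%) and Chrnb2 held 12 (39.6%). The median over all windows was 7. Chrna2, Chrna6 and Chrnb3 have no window in the table.

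A search of both strands covered GGGCGG (the Sp1 box), CANNTG (the E-box, which reads the same on both strands), TAATTA (a homeodomain site that also reads the same on both strands), TAATCC (the site of OTX-type homeodomains) and AACAAT (a SOX site). GGGCGG was present 4 times in Chrna5 start 2 and once in Chrna3, and was not in the windows of Chrna5 start 1 or Chrnb4, against 35.7% of all windows with at least 1. CANNTG occurred 3 times in Chrna3 and 2 times in each of the other cluster windows, with 72.3% of all windows holding it. TAATTA was in none of the 4 cluster windows, against 5.29% of all windows. The same held for the OTX-type site (7.06% of all windows) and the SOX site (10.7%). No matches of different motifs shared a base, and 1 pair of CANNTG matches in Chrna3 overlapped. These matches describe letters in the window and not binding.

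Reads counted on genes numbered 14813873 to 16987479 in Cre−, 9627927 to 21108256 per tHet library and 15176156 to 16840792 in Tet tcKO, recovered as whole multiples of a single read. A ribosomal RNA gene, CT010467.1, took 28.72% of the counted reads in Tet tcKO library 3, 3.721% in tHet library 3 and at most 0.2261% in the other 7 libraries, which lowers every other CPM value of Tet tcKO library 3. With this gene left out of the totals, the median difference of all genes moved from 0.00 to 0.14 on the log2 scale in Tet tcKO versus Cre−. Of the targeted genes, Tet3 was at 213, 268 and 223 CPM in Cre−, 268, 288 and 155 CPM in tHet and 108, 152 and 99.2 CPM in Tet tcKO, whereas Tet1 and Tet2 overlapped between genotypes. These values count reads over all exons of each gene, remaining exons included. Retinal identity was clear in the controls, where the summed level of 8 rod markers was 28620 to 39480 CPM, against 3312 to 11280 CPM in Tet tcKO (7 of 8 markers called lower against Cre−).

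Chrnb4, the β subunit that pairs with α3, was at 1.88, 1.78 and 1.22 CPM in the Cre− libraries, at 2.02, 3.32 and 3.32 CPM in tHet and at 101, 65.1 and 48.6 CPM in Tet tcKO. Every Tet tcKO library was far above every control library, and the tHet libraries all lay above the Cre− libraries. In reads, these levels rest on 32, 28 and 18 in Cre−, 28, 32 and 70 for tHet and 1701, 988 and 807 for Tet tcKO. The mean was 44.0 times the Cre− mean and 24.8 times the tHet mean, or 5.03 ± 0.31 (SE) and 4.37 ± 0.31 on the log2(CPM + 0.5) scale. With CT010467.1 left out of the totals, the Tet tcKO libraries read 101, 65.2 and 68.2 CPM.

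Chrna3, which supplies the α partner of β4, was at 11.2, 9.80 and 7.16 CPM in Cre−, 7.56, 10.8 and 6.78 CPM in tHet and 39.8, 33.9 and 25.4 CPM in Tet tcKO. The controls overlapped each other, and all Tet tcKO libraries were above them. The means differed 3.52 times from Cre− (log2 fold change 1.76 ± 0.27) and 3.94 times from tHet (1.92 ± 0.27).

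Chrna5, the accessory α subunit of the cluster, was at 5.0, 2.86 and 4.12 CPM in Cre−, 2.66, 3.53 and 2.80 CPM in tHet and 16.6, 15.1 and 11.4 CPM in Tet tcKO. Again only the Tet tcKO libraries stood apart among the 9 libraries. The log2 fold changes were 1.74 ± 0.30 against Cre− and 2.08 ± 0.30 against tHet, and without Tet tcKO library 1 Chrna5 was no longer called against Cre− (log2 fold change 1.63). With CT010467.1 left out of the totals, the Tet tcKO libraries were closer to each other, at 16.6, 15.1 and 16 CPM for Chrna5 and 39.8, 33.9 and 35.6 CPM for Chrna3.

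**Figure D1:**
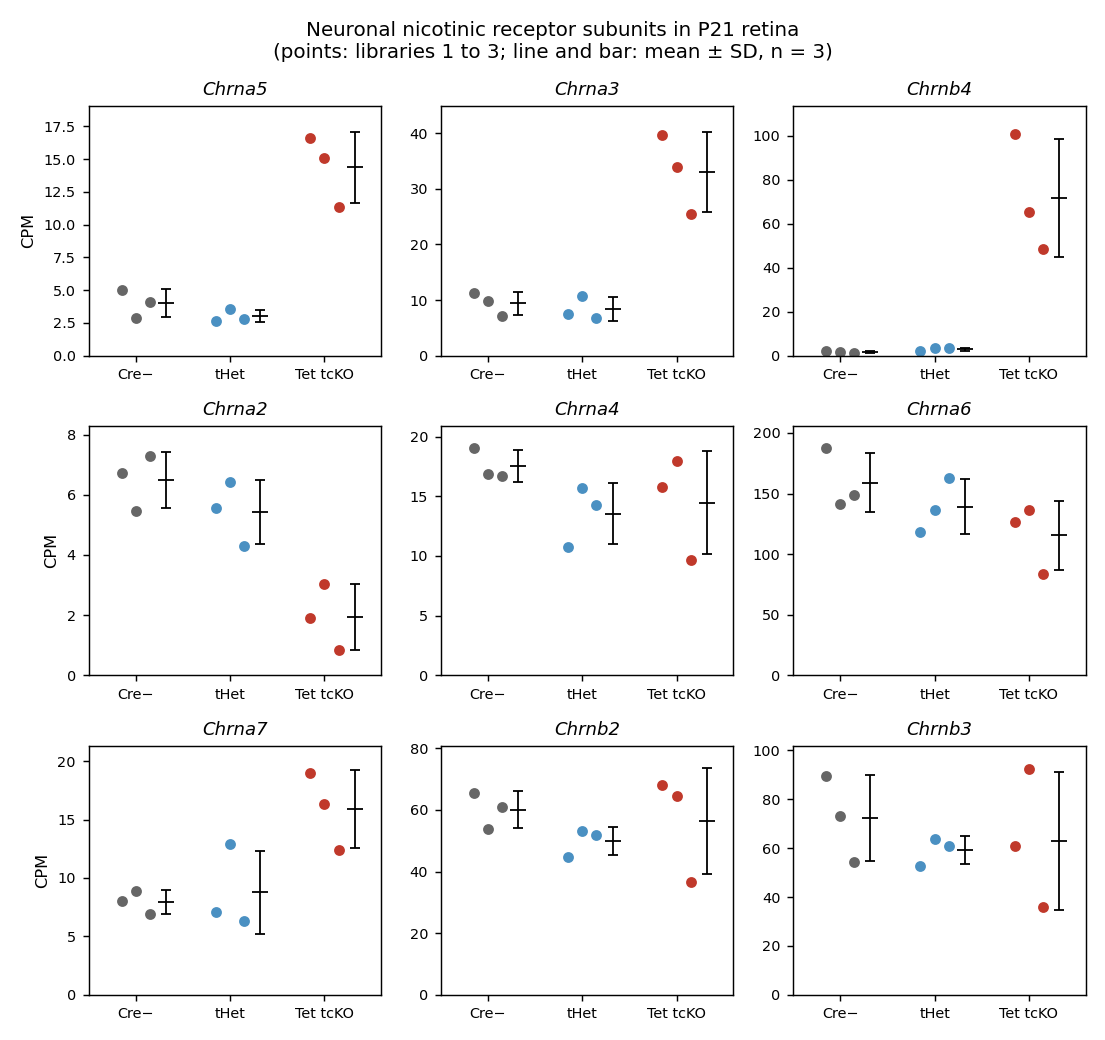
Level of the 9 subunits in CPM (vertical axis, from 0) in the 3 libraries of each genotype (points), with the mean and SD beside them (n = 3). The top row shows the chromosome 9 cluster, where all Tet tcKO points lie above all control points, and the rows under it show the other 6 subunits.

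Among the other α subunits, Chrna2 was the only one with all Tet tcKO libraries below both controls. It was at 6.71, 5.47 and 7.29 CPM in Cre−, 5.55, 6.44 and 4.31 CPM in tHet and 1.90, 3.03 and 0.843 CPM in Tet tcKO. The lowest control library was above the highest Tet tcKO library, which rests on 46 reads against 32 and 14 in the other Tet tcKO libraries. The log2 fold change was −1.63 ± 0.35 against Cre− and −1.38 ± 0.35 against tHet. Its call against Cre− was lost without Cre− library 3 (−1.55), without Tet tcKO library 1 (−1.67), without Tet tcKO library 3 (−1.25) and with no filter on low values (−1.63).

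Chrna7, the α subunit that can form a channel alone, was at 8.06, 8.91 and 6.88 CPM in Cre−, 7.13, 12.9 and 6.30 CPM in tHet and 19.0, 16.3 and 12.4 CPM in Tet tcKO. All Tet tcKO libraries were above Cre−, but tHet library 2 lay above Tet tcKO library 3. The means differed 2.00 times from Cre− (log2 fold change 0.94 ± 0.29) and 1.82 times from tHet (0.87 ± 0.29), and Chrna7 was called in neither comparison. With CT010467.1 left out of the totals the Tet tcKO libraries were at 19.0, 16.4 and 17.4 CPM and lay above all tHet libraries, of which the highest was at 12.9 CPM. The log2 fold changes were then 1.10 and 1.01, still not called.

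Chrna6, the main partner of β3 in ganglion cells, was the most abundant member in every genotype, at 187, 141 and 149 CPM in Cre−, 118, 136 and 163 CPM in tHet and 127, 136 and 83.3 CPM in Tet tcKO. The Tet tcKO libraries all lay below Cre− but overlapped tHet. Its log2 fold change was −0.48 ± 0.23 against Cre− and −0.29 ± 0.23 against tHet.

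Chrna4, which pairs with β2 in the most widespread brain receptor, was at 19.1, 16.9 and 16.7 CPM in Cre−, 10.7, 15.7 and 14.3 CPM in tHet and 15.8, 18.0 and 9.63 CPM in Tet tcKO. Tet tcKO overlapped both controls, and its log2 fold change was −0.31 ± 0.27 against Cre− and 0.06 ± 0.27 against tHet.

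The remaining β subunits showed no separation of Tet tcKO from either control. Chrnb2 was at 65.6, 53.9 and 60.9 CPM in Cre−, 44.7, 53.2 and 52.0 CPM in tHet and 68.2, 64.6 and 36.5 CPM in Tet tcKO, with log2 fold changes of −0.14 ± 0.24 and 0.13 ± 0.24. Chrnb2 shares 1365 bases of exon with Adar on the opposite strand, and Adar also overlapped between genotypes (log2 fold change 0.01 ± 0.23 against Cre−). The strand setting of the counting is not given in the sources used here, so the level of Chrnb2, and each place or ratio that uses it, may hold reads of Adar or lack reads in the shared bases. The accessory subunit Chrnb3 was at 89.6, 73.3 and 54.3 CPM in Cre−, 52.7, 63.9 and 60.7 CPM in tHet and 60.7, 92.4 and 36.0 CPM in Tet tcKO. Its Tet tcKO libraries held both the highest and the lowest value of all 9, and the log2 fold changes were −0.27 ± 0.28 against Cre− and −0.00 ± 0.28 against tHet. Tet tcKO library 3, in which CT010467.1 took 28.72% of the reads, was the lowest of all 9 libraries for Chrna2, Chrna4, Chrna6, Chrnb2 and Chrnb3. With CT010467.1 left out of the totals it read 117 CPM for Chrna6, 51.3 CPM for Chrnb2 and 50.5 CPM for Chrnb3.

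Over the family, 3 of 9 members were called higher in Tet tcKO than in Cre− (a log2 difference of 1 or more in either direction with a limma adjusted p under 0.01), beside 2.03% of the 21330 genes tested, and 1 of 9 was called lower, beside 1.57%. Against tHet, 3 of 9 were called higher, beside 1.39% of all genes, and 0 of 9 lower, beside 1.61%. In that comparison edgeR called 3 and DESeq2 called 4, the addition being Chrna2. Since the members were selected on this contrast, nothing is read from these shares or calls. The 3 genes called higher were the cluster genes in both comparisons, which share the Tet tcKO libraries. The median log2 fold change of the cluster was 1.76 against Cre− and 2.08 against tHet. That of the other 6 subunits was −0.29 and 0.03, and that of all genes tested 0.00 and −0.06. Without Tet tcKO library 3, the median of the other 6 subunits against Cre− was 0.01.

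**Figure D2:**
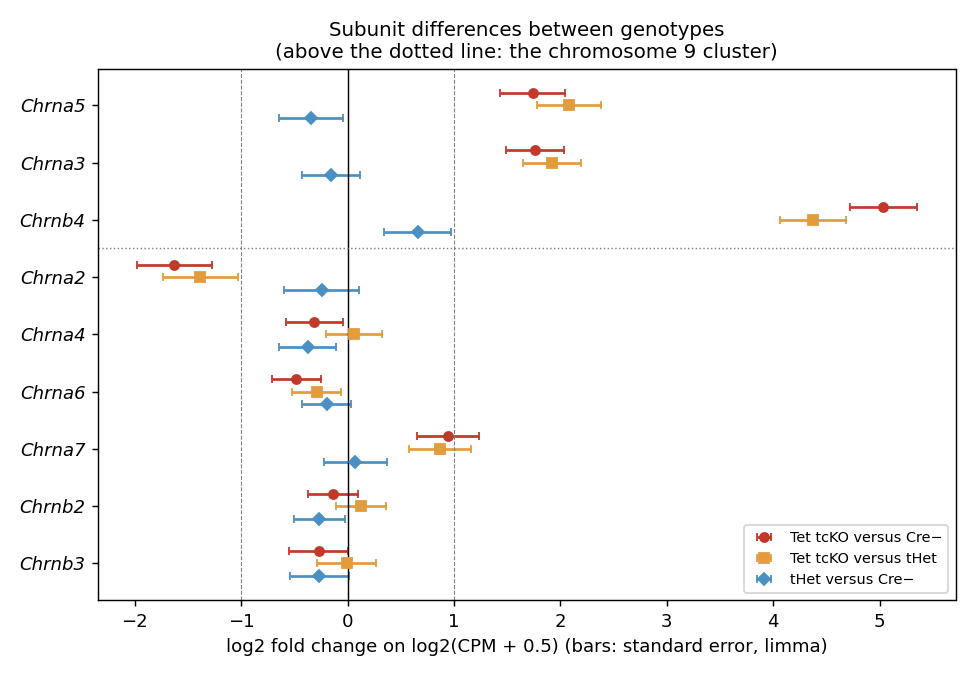
Log2 fold change of each subunit (horizontal axis, log2(CPM + 0.5) scale) with its standard error, for Tet tcKO versus Cre− (circles), Tet tcKO versus tHet (squares) and tHet versus Cre− (diamonds). Dashed lines mark the fold threshold of 1. Chrnb4 lies at 5.03 and 4.37 in the Tet tcKO comparisons, Chrna3 and Chrna5 between 1.74 and 2.08, and Chrna2 alone below −1.

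Heterozygous loss of the floxed alleles was compared with Cre− to ask whether 1 remaining copy of each Tet gene already came with a subunit difference. In tHet versus Cre−, 0 of 9 members were called by limma, beside 0.0422% of all genes in either direction, and edgeR and DESeq2 also called 0. At an unadjusted p under 0.05 there was 1 member, Chrnb4, whose mean was 1.77 times higher in tHet with all 3 tHet libraries above all 3 Cre− libraries (log2 fold change 0.66 ± 0.31, limma adjusted p = 1, unadjusted p = 0.0486). Chrna4 and Chrnb2 lay below Cre− in all 3 tHet libraries, with log2 fold changes of −0.37 ± 0.27 and −0.26 ± 0.24 (limma adjusted p = 1 for both). With CT010467.1 left out of the totals this still held for Chrna4 but not for Chrnb2. Chrnb2 was then at 53.98 CPM in tHet library 3 and 53.91 CPM in Cre− library 2. The other members overlapped, and all 9 log2 fold changes were between −0.37 and 0.66. The Chrnb4 difference rests on 18 to 70 reads per library.

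Levels of different subunits were compared per length of exon, as CPM per kb of merged exons. In Cre− the order was Chrna6 (54.7 CPM per kb), Chrnb3 (11.4), Chrnb2 (7.17), Chrna4 (3.49), Chrna3 (1.78), Chrna7 (1.76), Chrna2 (1.71), Chrna5 (1.28) and Chrnb4 (0.437). Along this order the libraries of adjacent genes did not overlap, except in the run of Chrna3, Chrna7, Chrna2 and Chrna5, where each overlapped the next. In tHet the first 4 places and the last 3 were held by the same genes, with Chrna7 (1.95 CPM per kb) above Chrna3 (1.59) within their spread.

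In Tet tcKO the order was Chrna6 (39.7 CPM per kb), Chrnb4 (19.2), Chrnb3 (9.90), Chrnb2 (6.73), Chrna3 (6.27), Chrna5 (4.6), Chrna7 (3.53), Chrna4 (2.88) and Chrna2 (0.508). Chrnb4 thus stood last in Cre−, last in tHet within a range that overlapped that of Chrna5, and second in Tet tcKO within a range that overlapped that of Chrnb3. From Chrnb4 to Chrna4 every gene overlapped the next in the order, while Chrna6 and Chrna2 stood apart at the ends. The order was the same with CT010467.1 left out of the totals, where Chrnb4 (17.5 to 27.1 CPM per kb) no longer overlapped Chrnb3 (7.93 to 14.5), and overlaps remained only in the run of Chrnb3, Chrnb2 and Chrna3.

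The summed level of all 9 subunits was 83.7 ± 12.3 CPM per kb in Cre− (SD, n = 3), 72.5 ± 9.25 for tHet and 93.4 ± 24.5 for Tet tcKO, and these means differed by less than the SD of the Tet tcKO libraries. This did not hold with CT010467.1 left out of the totals, where the sums were 83.8 ± 12.3, 73.6 ± 10.5 and 102 ± 9.51 CPM per kb, with Tet tcKO at 91.3 to 109 and Cre− at 76.5 to 98.0, which overlapped, and tHet at 62.4 to 83.4. Within this sum, the cluster made up 4.32%, 4.26% and 3.91% in Cre−, 4.54%, 5.43% and 3.83% for tHet and 36.6%, 27.2% and 33.1% for Tet tcKO. Chrnb4 alone was 0.522% ± 0.10 of the sum in Cre−, 1.1% ± 0.17 for tHet and 20.48% ± 4.18 in Tet tcKO. The share of Chrna6 was 65.3% ± 1.70, 65.9% ± 3.72 and 42.8% ± 2.43 in the same order. Shares and ratios within a library do not depend on its total.

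**Figure D3:**
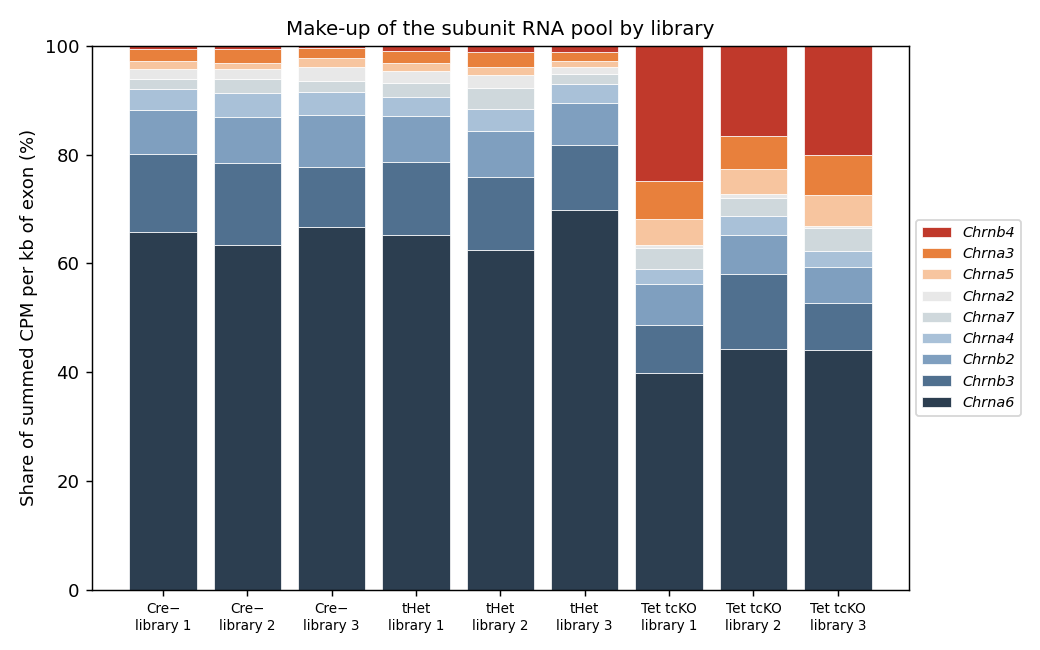
Share of each subunit in the summed CPM per kb of the 9 subunits (vertical axis, percent) for each of the 9 libraries. The cluster genes (upper colours) take 3.83% to 5.43% in the 6 control libraries and 27.2% to 36.6% in the Tet tcKO libraries.

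Ratios within a library separated the cluster genes from each other. Chrnb4 stood to Chrna3, per length, as 0.238, 0.257 and 0.240 in Cre−, 0.377, 0.435 and 0.692 for the tHet libraries and 3.59, 2.72 and 2.7 for Tet tcKO. All tHet ratios were above all Cre− ratios and all Tet tcKO ratios above both. Chrna5 to Chrna3, by contrast, was 0.738 ± 0.239 in Cre−, 0.613 ± 0.0741 for tHet and 0.736 ± 0.0281 for Tet tcKO, with overlapping libraries. The accessory subunit and its α3 partner thus kept their ratio within the spread between libraries, while that of β4 to α3 did not.

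Subunits that are known as partners outside the cluster were also set against each other. Chrnb3 to Chrna6, the neighbours on chromosome 8, was 0.207 ± 0.0367 in Cre−, 0.196 ± 0.0229 for tHet and 0.242 ± 0.0597 for Tet tcKO. Chrna4 to Chrnb2 was 0.488 ± 0.0327, 0.450 ± 0.0464 and 0.430 ± 0.0399. Both ratios overlapped between genotypes. Chrnb4 to Chrnb2, the β subunits that can take the same place in a ring, was 0.0613 ± 0.0150, 0.129 ± 0.0235 and 2.87 ± 0.544.

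An antisense gene, Gm47877, is annotated on the plus strand within the span of Chrnb4 (chr9:55030783-55039429) and shares no exon base with it. It was at 0, 0.191 and 0 CPM in Cre−, 0.288, 0.416 and 0.237 CPM in tHet and 9.80, 12.1 and 9.57 CPM in Tet tcKO, so it was high in the same libraries as Chrnb4. Its log2 fold change of 4.30 ± 0.32 against Cre− depends on the added 0.5 CPM, since Cre− libraries 1 and 3 had no read. No control library reached 0.5 CPM, so the gene passed the filter through the Tet tcKO libraries alone, and its difference is a description. The libraries were stranded, but the strand setting of the counting is not given in the sources used here, so reads of Chrnb4 introns and of Gm47877 cannot be told apart with certainty.

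The 5 nearest protein-coding genes on each side of the cluster were examined to see how far along the chromosome the difference reached. On the Chrna5 side these were Psma4, a proteasome subunit 22.8 kb away, AY074887, Hykk, a hydroxylysine kinase, Ireb2, an iron-responsive RNA-binding protein, and Crabp1, which binds retinoic acid. On the Chrnb4 side they were Ube2q2, Fbxo22, Nrg4, Tmem266 and Etfa, the last 405.7 kb away. AY074887 was too low to be tested. Of the other 9, 0 were called in Tet tcKO versus Cre− by limma, by edgeR or by DESeq2, and 0 had an unadjusted p under 0.05. Over all genes 2.03% were called higher and 1.57% lower, so 0 of 9 is near the background and does not by itself set the neighbours apart from the cluster. Their log2 fold changes ranged from −0.21 (Tmem266) to 0.63 (Crabp1), with a median of 0.19.

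The nearest of them, Psma4, was at 102, 94.1 and 109 CPM in Cre−, 109, 99.6 and 129 CPM in tHet and 172, 130 and 110 CPM in Tet tcKO. All Tet tcKO libraries were above Cre−, and the log2 fold change was 0.41 ± 0.21 (limma adjusted p = 0.37). Ube2q2, the nearest gene on the Chrnb4 side at 100.1 kb, was at 87.9, 74.8 and 86.7 CPM in Cre− and 91.9, 90.7 and 61.7 CPM in Tet tcKO (log2 fold change −0.05 ± 0.22, limma adjusted p = 0.973). Hykk had a log2 fold change of 0.34 ± 0.30, Nrg4 of 0.37 ± 0.35 and Crabp1 of 0.63 ± 0.32, and the libraries of each overlapped between Cre− and Tet tcKO. When CT010467.1 was left out of the totals, Psma4, Hykk, Crabp1 and Fbxo22 lay above Cre− in all Tet tcKO libraries (log2 fold changes 0.58, 0.50, 0.79 and 0.35), none of them called, and the other 5 overlapped. The median of all genes rose to 0.14 in the same setting. The share of all genes that lay above Cre− in this way was not computed, so nothing is read from the neighbours that did. Against tHet, 0 of the 9 were called by any of these tools either.

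**Figure D4:**
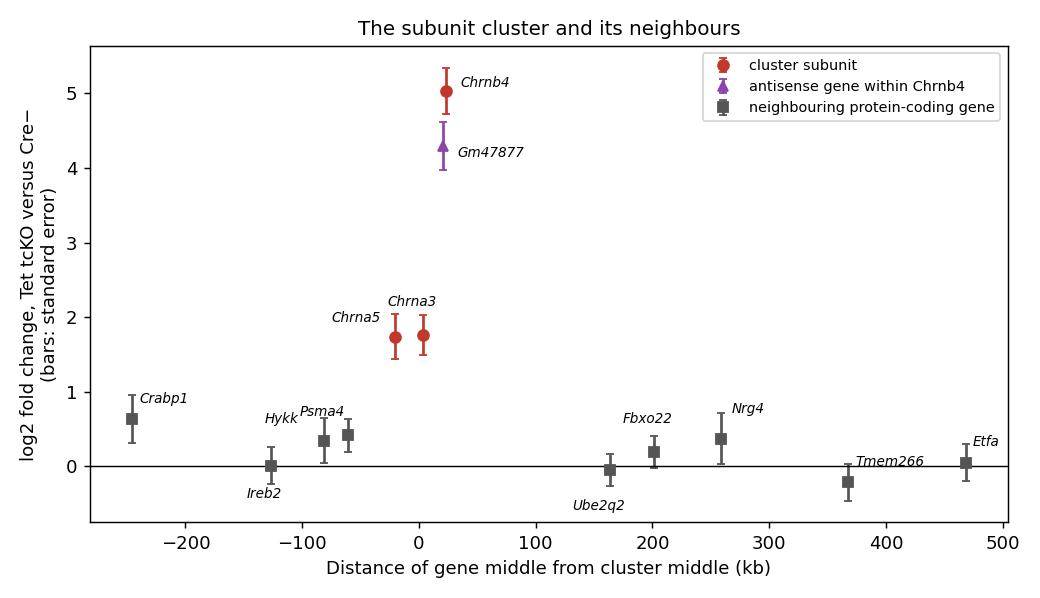
Log2 fold change in Tet tcKO versus Cre− (vertical axis, with standard error) of the 3 cluster subunits, the antisense gene within Chrnb4 and the 9 tested neighbours, by distance of each gene's middle from the middle of the cluster (horizontal axis, kb). The subunits and the antisense gene lie between 1.74 and 5.03, and the neighbours between −0.21 and 0.63.

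Other genes of cholinergic signalling were taken from fixed lists of 40 genes, of which 32 passed the filter. In Tet tcKO versus Cre−, 1 was called higher and 0 lower by limma (edgeR called 0 and DESeq2 called 2), beside 2.03% and 1.57% of all genes. Against tHet 2 were called higher and 0 lower (edgeR 3, DESeq2 4), beside 1.39% and 1.61%, and in tHet versus Cre− 0 were called by any of these tools, with 1 at an unadjusted p under 0.05. The gene called in both was Atoh7, and that called against tHet alone was Ache. Atoh7 passed the filter through the Tet tcKO libraries alone, so its part in these counts is a description. The limma count against Cre− is near these shares, and that against tHet is above them but rests on 2 genes. Each shorter list held at most 1 limma call, so nothing is read from these counts. Over all genes, edgeR called 426 higher and 318 lower against Cre− and DESeq2 636 and 509. Against tHet edgeR called 332 and 276, and DESeq2 500 and 546. At an unadjusted p under 0.05 there were 6 of 32 against Cre− and 9 of 32 against tHet. The share of all genes at that p was not computed, so nothing is read from such counts, for this or any other list. The median log2 fold change was 0.06 against Cre−, beside 0.00 for all genes.

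Genes that make and load acetylcholine were not called, 0 of 5 in any comparison by limma, edgeR or DESeq2, with 1 at an unadjusted p under 0.05 against Cre−. Chat, the enzyme that makes acetylcholine, was at 15.4, 11.1 and 9.38 CPM in Cre− and 12.9, 9.16 and 4.46 CPM in Tet tcKO (log2 fold change −0.50 ± 0.33, limma adjusted p = 0.548). Slc18a3, the vesicular transporter, had a log2 fold change of 0.01 ± 0.34 (limma adjusted p = 0.998). Slc5a7, the choline transporter, was at 30.7, 19.98 and 26.1 CPM in Cre−, 19.9, 38.2 and 27.8 CPM in tHet and 77.3, 41.4 and 24.3 CPM in Tet tcKO. Its spread within Tet tcKO was wider than its difference from Cre− (0.75 ± 0.33, limma adjusted p = 0.235).

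Ache, the enzyme that breaks acetylcholine down at synapses, was at 23.2, 23.5 and 22.3 CPM in Cre−, 20.6, 21.8 and 20.2 CPM in tHet and 46.9, 50.3 and 39.7 CPM in Tet tcKO. All Tet tcKO libraries were far above both controls, whose libraries differed little. Ache rose against tHet by 1.10 ± 0.21 on the log2 scale (limma adjusted p = 0.00218). Against Cre− the log2 fold change of 0.97 ± 0.21 (limma adjusted p = 0.00565) stayed under the fold threshold of 1. With CT010467.1 left out of the totals it was 1.13, and without Tet tcKO library 3 it was 1.063, and both were called. The call against tHet was lost without tHet library 1 (1.09), without Tet tcKO library 1 (1.08) or without Tet tcKO library 2 (1.03).

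Of the 5 muscarinic receptors, the slower receptors for acetylcholine, 0 were called in any comparison and 0 had an unadjusted p under 0.05. Log2 fold changes against Cre− ran from −0.54 to 0.19. Of the 12 assembly and accessory proteins 11 were tested, and 0 were called by limma or edgeR in any comparison (against tHet DESeq2 called 1, Ly6e, and 2 had an unadjusted p under 0.05). Among them Ric3, a chaperone that helps nicotinic receptors fold, had a log2 fold change of −0.19 ± 0.22 against Cre−, and Lynx1, a brake on nicotinic currents, of −0.38 ± 0.26. Of 7 muscle-type and other nicotinic subunits, 6 were under the filter, and Chrnb1 was the one tested (−0.44 ± 0.26, limma adjusted p = 0.467).

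A last list held 7 transcription factors that have been tied to subunit promoters or to ganglion cell genes. Atoh7, a factor of early ganglion cell precursors, was at 0.118, 0.318 and 0.473 CPM in Cre−, 0.144, 0 and 0.237 CPM in tHet and 2.02, 1.71 and 1.33 CPM in Tet tcKO. Its levels were low in every library but did not overlap. No control library reached 0.5 CPM, so Atoh7 was tested only because it was high in Tet tcKO, and its differences are given as a description without p-values. The log2 fold change was 1.46 ± 0.32 against Cre− and 1.81 ± 0.32 against tHet, and the call against Cre− was lost on leaving out any 1 library of Cre− or Tet tcKO (log2 fold change 1.28 to 1.61) and with edgeR (2.48). Against tHet it was lost without Tet tcKO library 1 (1.70). The other 6 factors were not called by limma, while edgeR and DESeq2 each called 2 of the 7 against tHet. Jun lay above both controls in all Tet tcKO libraries, with log2 fold changes of 0.83 ± 0.20 against Cre− (limma adjusted p = 0.015) and 0.94 ± 0.20 against tHet (limma adjusted p = 0.00656). Both stayed under the fold threshold of 1, and edgeR called Jun against tHet (1.003). Of the 7 factors, 3 against Cre− and 4 against tHet had an unadjusted p under 0.05. Pou4f1, the ganglion cell factor also known as Brn3a, had a log2 fold change of 0.10 ± 0.28 against Cre−, and Sp1 of 0.02 ± 0.22.

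**Figure D5:**
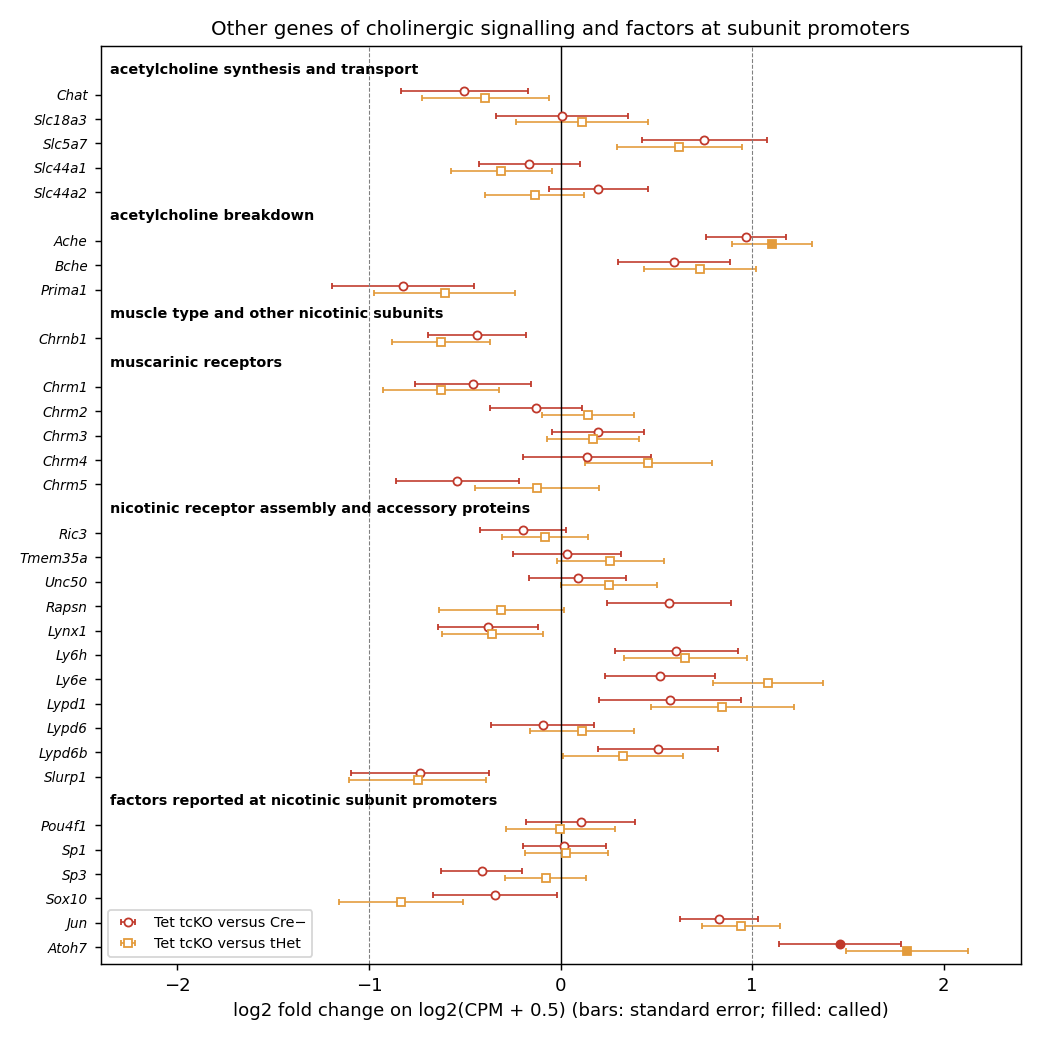
Log2 fold change with standard error of tested genes of cholinergic signalling and promoter factors, grouped by list, in Tet tcKO versus Cre− (circles) and versus tHet (squares). Filled symbols mark called genes, which are Ache (against tHet only) and Atoh7 (against both, which passed the filter through the Tet tcKO libraries alone).

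The genes whose levels over the 9 libraries were most like those of Chrnb4, by Pearson correlation on the log2 scale among 17428 genes, were Crym (r = 0.996), Otop3 (0.995), Ces2b (0.995), Gpat3 (0.993) and Rerg (0.991). The 9 libraries are the same for all genes and fall into a high and a low group, which sets much of such a correlation, so it is given as a description. Crym, a thyroid hormone binding protein, was at 21.6 to 22.5 CPM in Cre−, 21.1 to 26.9 CPM in tHet and 79.2 to 97.4 CPM in Tet tcKO. Otop3, a proton channel, was at 2.18 to 3.05 CPM, 3.38 to 4.47 CPM and 44.8 to 83.4 CPM. Ces2b, a carboxylesterase, was listed at 0 in all Cre− libraries and was at 5.36 to 8.43 CPM in Tet tcKO. It reached at most 0.208 CPM in a control library, so it passed the filter through the Tet tcKO libraries alone. As for Chrnb4, all tHet libraries of Otop3, Ces2b, Gpat3 and Rerg were above Cre−, an order that picking genes by likeness to Chrnb4 favours. Among the subunits, Chrna3 (0.959) ranked 114th, Chrna5 (0.941) 184th and Chrna7 (0.862) 623rd, and Chrna2 had a correlation of −0.864.

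Across the 9 libraries the subunits fell into a cluster set and a second set. Chrna3 and Chrna5 were correlated at 0.966, and Chrna7 with Chrna3 at 0.926. In a second set, of Chrna4, Chrna6, Chrnb2 and Chrnb3, Chrna4 with Chrnb2 reached 0.911, Chrna4 with Chrnb3 0.869 and Chrna6 with Chrna4 0.814. Chrna3 with Chrna4 was 0.01. Chrna2 was at 0.766 with Chrna6, 0.39 with Chrnb2 and −0.864 with Chrnb4. These are descriptions over 9 shared libraries, and in the second set Tet tcKO library 3 was the lowest point for every gene. CT010467.1 lowers the values of that library, and the correlations were not recomputed with it left out of the totals.

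In whole retina, fewer cells of a type and less RNA per cell cannot be told apart, so the marker lists are given beside the subunit values. The summed level of 10 ganglion cell markers, the cells known for Chrna6 and Chrnb3, was 1299 to 1858 CPM in Cre−, 1417 to 3084 CPM in tHet and 843.4 to 1341 CPM in Tet tcKO. Of these markers 0 were called against Cre− by limma or edgeR and 2 by DESeq2, with 4 at an unadjusted p under 0.05. Against tHet every Tet tcKO sum was below every tHet sum, and limma called 1 marker lower, Sncg (a synuclein; log2 fold change −1.56 ± 0.32, limma adjusted p = 0.00365), with 4 at an unadjusted p under 0.05. EdgeR called 0 in that comparison and DESeq2 called 2. The neurofilament genes Nefl (−1.08 ± 0.31, limma adjusted p = 0.045) and Nefm (−1.12 ± 0.28, limma adjusted p = 0.017) also lay below tHet in all Tet tcKO libraries and were not called. Isl2 went the other way and was not called. It was at 1.49 ± 0.41 against Cre− (limma adjusted p = 0.0301) and 0.94 ± 0.41 against tHet (limma adjusted p = 0.217). Over the 10 markers the log2 fold changes against tHet ran from −1.56 to 0.94, with a median of −0.26, so the lower sum was not shared by all markers. The 6 starburst amacrine markers summed to 65.09 to 79.59 CPM in Cre− and 56.96 to 131.5 CPM in Tet tcKO, with 0 called by any of these tools and 1 at an unadjusted p under 0.05.

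The sums of some marker lists separated Tet tcKO from both controls, as the levels of the cluster genes did. Over all genes 2.03% were called higher and 1.57% lower against Cre−, to be set beside the counts that follow. The 9 cone markers summed to 646.6 to 783.7 CPM in Cre−, 720.5 to 879.5 CPM in tHet and 1179 to 1780 CPM in Tet tcKO, with 5 called higher and 1 lower against Cre−. The 10 progenitor and early neuron markers summed to 112.2 to 156.1 CPM in Cre−, 132.6 to 205.6 CPM in tHet and 236.5 to 445.2 CPM in Tet tcKO, with 3 of the 9 tested called higher. Atoh7 is among these 3 and passed the filter through the Tet tcKO libraries alone, so its call is a description. The 6 Müller glia markers summed to 1534 to 1974 CPM in Cre−, 1422 to 1762 CPM in tHet and 1177 to 1415 CPM in Tet tcKO, with 1 called higher and 2 lower. For these lists and the rods, no Tet tcKO library overlapped a control library. Without CT010467.1 in the totals this held for cones, progenitors and rods but not for Müller glia, where Tet tcKO library 3 rose to 1651 CPM, within the control range of 1423 to 1975 CPM. The summed bipolar (1108 to 1894 CPM in Tet tcKO against 1706 to 1954 CPM in Cre−), amacrine (420.0 to 867.7 CPM against 550.3 to 649.0 CPM) and horizontal cell markers (175.2 to 287.0 CPM against 235.0 to 350.7 CPM) overlapped. Single markers within these sums still differed. Against Cre− limma called 1 higher and 2 lower of 8 bipolar markers. It called 0 higher and 1 lower of 6 amacrine markers and 0 of 5 horizontal cell markers. The 6 microglia and vessel markers summed to 20.61 to 24.49 CPM in Cre−, 25.78 to 33.12 CPM in tHet and 26.61 to 53.92 CPM in Tet tcKO. All Tet tcKO libraries were above Cre−, and 1 marker, the microglial receptor Cx3cr1, was called higher (log2 fold change 1.31 ± 0.30, limma adjusted p = 0.00935; edgeR called 0 of the list). Once CT010467.1 was left out of the totals, the Tet tcKO sums (37.3 to 54.0 CPM) were also above all tHet sums (25.8 to 34.4 CPM). The 7 markers of pigment epithelium, ciliary body and lens summed to 77.11 to 198.6 CPM in Cre−, 172.2 to 277.3 CPM in tHet and 68.05 to 133.0 CPM in Tet tcKO, below tHet in all libraries. Against Cre− 3 were called, the pigment epithelium genes Rpe65 (−1.87 ± 0.35) and Rgr (−1.62 ± 0.32) lower and Optc (opticin) higher (3.40 ± 0.45), with limma adjusted p of 0.00171, 0.00259 and 4.65e-05. Optc was also called higher in tHet than in Cre− (3.91 ± 0.45, limma adjusted p = 0.000311). The part of any of these cell types in the subunit differences was not tested.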

How the data were processed

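Total RNA of P21 retinas was depleted of ribosomal RNA and made into stranded libraries. Per the submitters' processing notes and the study's methods, the authors trimmed reads (Trim Galore 0.6.7), aligned them to mm10 (STAR 2.7.0f) and counted them on genes (HTSeq 0.11.2). The annotation and strand setting are not given in the sources used here. The authors deposited CPM values per gene and library, scaled so that each column sums to 1000000. They also deposited log2 fold changes, log2 mean CPM, p-values and q-values of their own comparisons, which were not used. Every CPM value was a whole multiple of 1 read within 0.1 reads (100%), so reads were recovered, and 0 columns of samples were left out.

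Groups and replicate numbers were taken from the labels. A linear model per gene was fitted to log2(CPM + 0.5) using limma 3.58.1 (lmFit, eBayes with trend; R 4.3.3) for the 21330 genes that reached 0.5 CPM in 3 or more libraries, with 1 mean per genotype over all 9 libraries and Benjamini-Hochberg adjustment over all genes. A call required a log2 difference of 1 or more, in either direction, with an adjusted p under 0.01. Alternatives were other pseudocounts, filters and scalings, edgeR 4.0.16 and DESeq2 1.42.0 on recovered reads, a replicate block, fits restricted to the 6 libraries in question, each library left out and, chosen after seeing the data, CT010467.1 left out of the totals. The script was tested on simulated data. Libraries were compared by chi-square tests of their reads, and none of the same genotype agreed within sampling noise (at least 13.29 per degree of freedom). Depth limits the precision of low values, and read counts cover counting error only.

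Members, gene lists and tests were chosen with earlier results of these data known. Named genes were the members, the 5 nearest protein-coding genes on each side, called genes of each cholinergic list (at most 4 a list) with Chat, Slc18a3, Slc5a7 and Ache, and the 5 genes most correlated with Chrnb4. Other genes of the cholinergic lists (Ric3, Lynx1, Chrnb1, Pou4f1, Sp1, Jun, Ly6e), the targeted Tet genes, the antisense gene Gm47877, Adar, CT010467.1 and the markers Sncg, Nefl, Nefm, Isl2, Cx3cr1, Rpe65, Rgr and Optc were named outside this rule, after their values were seen. A gene of these lists is not reported here. Gene identifiers were matched without version to GENCODE M21 (55141 of 55487), which gave positions and exon lengths. Start-site windows were taken from RefSeq (GRCm38.p6), where 6 of 9 members matched. Plots used matplotlib 3.10.9 (Python 3.11.15).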

Additional observations from a re-analysis of the deposited data

How the results depend on the processing

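Of 1140 recomputed values for 57 results under 20 alternatives, 1082 kept their direction and their side of the threshold or stayed within the spread between libraries. Chrna3 and Chrnb4 were called in Tet tcKO against both controls under all 20. Members called against Cre− numbered 2 to 4 when 1 library was left out, with 2 without Tet tcKO library 1. Chrna2 was called against tHet in 6 of the 20.

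Counts of other cholinergic genes called moved most. Against Cre− the count of 1 became 0 with a pseudocount of 0.1, no filter, the filter at 1 CPM or edgeR, became 2 with a pseudocount of 1, DESeq2, the replicate block or only the 6 libraries compared, and became 3 with CT010467.1 left out. Leaving out 1 library gave 0 to 2. Against tHet the count of 2 became 4 with DESeq2 or the replicate block and 5 with CT010467.1 left out, and was 0 to 3 when 1 library was left out. The cause was not tested.

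Sign changes occurred only in small differences that were never called. Chrnb3 against tHet changed sign in 7 of the 20 alternatives. In Tet tcKO versus Cre−, Ube2q2 became 0.11 with CT010467.1 left out. Leaving out 1 library at a time spread the log2 fold change from −0.15 to 0.14 for Ube2q2, −0.18 to 0.21 for Ireb2, −0.14 to 0.21 for Etfa, −0.26 to 0.23 for Slc18a3 and, in tHet versus Cre−, −0.22 to 0.26 for Chrna7.

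The values do not settle whether replicate numbers pair the libraries. The mean correlation of same-numbered libraries was 0.111 (−0.35 to 0.56), beside −0.0515 for libraries that differed in number and genotype. Of the same-numbered pairs 5 of 9 exceeded 0.1, and 5 of 9 libraries correlated best with their own number. With the replicate block Chrna2 was called against tHet (4 members called), and calls over all genes rose from 434 to 613 higher and from 334 to 514 lower against Cre−. DESeq2 gave 636 and 509, and leaving out CT010467.1 gave 613 higher and 222 lower.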
